A study of Emiliania huxleyi CCMP1516 with 36 samples.

Results

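SNARE proteins drive the fusion of transport vesicles with their target membranes, and tethering complexes hold a vesicle at that membrane before it fuses. The genes named for them were followed in Emiliania huxleyi, a unicellular marine alga of the coccolithophores, after exposure to 2-heptyl-4-quinolone (HHQ), an alkylquinolone that some bacteria release. The set is the 27 of 37212 genes whose identifier begins with STX, VAMP, SYP, YKT6, SEC22, SEC20, VTI1, BET1, GOS, NSF, SNAP, USE1, EXOC, TRAPP, DSL or COG1 to COG8. It holds 18 SNARE genes and 9 tether genes: 7 syntaxins, 4 VTI1 copies, GOS1, 6 VAMP7 copies, COG1 to COG8 and DSL1. No identifier matched the other prefixes, so the fusion ATPase NSF, its SNAP adaptors, the exocyst and TRAPP were not analysed here. The classes rest on the gene symbols alone, and all 27 symbols were found in the RefSeq gene table of the organism.

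The study asked how axenic E. huxleyi cultures, kept free of other organisms, responded to HHQ. HHQ was given to CCMP2090 cultures at doses of 1, 10 and 100 ng/ml, with harvests 24 and 72 h afterwards. Vehicle cultures were sampled at the same times, and HHQ and vehicle cultures alike held 0.002% dimethyl sulfoxide, the solvent. Parent cultures, from which the others were inoculated, were sampled at 0 h with no treatment. Each of the 9 groups had 4 biological replicates, 36 libraries in all. The organism field names strain CCMP1516 while the cultures are labelled CCMP2090, and how this touches the counts was not tested.

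A fusion event pairs Q-SNAREs (Qa, Qb and Qc) with an R-SNARE, and each membrane of the cell has its own combination. Syntaxins are Qa-SNAREs: STX5 works at the Golgi, STX18 at the endoplasmic reticulum, and STXPM and STXE are read here as names for syntaxins of the plasma membrane and of endosomes. GOS1 and VTI1 are known from yeast as Golgi and Golgi-to-endosome Q-SNAREs, and VAMP7 is an R-SNARE of late endosomes, vacuoles or lysosomes and the cell surface. The COG complex tethers vesicles that recycle enzymes within the Golgi, and Dsl1 tethers Golgi-derived vesicles at the endoplasmic reticulum in yeast. In coccolithophores the Golgi also gives rise to the vesicles in which the calcite scales form.

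Libraries held 5679128 to 42602884 estimated counts, of which the 27 genes took 0.0579% to 0.0935%. Levels are given as library-scaled counts (CPM), normalized by the trimmed mean of M values (TMM), and are not corrected for gene length. The TMM factors moved with the dose: 1.60 to 1.83 with 100 ng/ml HHQ at 24 h against 0.670 to 1.10 in vehicle, and 1.23 to 2.13 against 0.491 to 0.895 at 72 h. Scaling by library totals, without TMM, moved the median gene to a log2 fold change of 0.873 (24 h) and 1.17 (72 h), so each change below is relative to the TMM scaling. RNA came from whole cultures, so fewer cells making a transcript and less of it per cell cannot be told apart.

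Some libraries stood apart within their groups. On the main axis of deviations from the group means at 24 h (32.6% of the variance), replicate 4 of all 4 treatments lay between −92.8 and −47.9, replicate 2 of HHQ 1 at −34.1, and the other 11 libraries between 10.6 and 96.9. At 72 h (32.4%), replicates 1 and 2 of all treatments lay between 27.9 and 83.2, and replicates 3 and 4 between −70.2 and −31.2. Among the parent cultures (56.0%), replicate 1 lay at 113 and the others between −50.7 and −24.5. In fits without the libraries that stood apart, replicate 4 of vehicle, HHQ 10 and HHQ 100 at 24 h was left out. HHQ 1 replicate 1 at 24 h and parent replicate 1 were left out too, and HHQ 1 replicates 2 and 4 were kept. Whether equal replicate numbers mark a shared batch is not stated in the labels.

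Of the 27 genes, 24 passed the filter on low counts and were tested, 16 SNARE genes and 8 tether genes. COG1 and VTI1-2 had 0 counts in all 36 libraries, which allows up to 0.00432 CPM over the 694708823 counts of the series, counting error only. VTI1-3 had 22 counts, all in parent replicate 1. The estimated counts were whole in every library for STX5-2, STXE, VAMP7-2, VAMP7-6, VTI1-1, COG2, COG3, COG4, COG6 and COG7. They were never whole for STXPM-1, STXPM-2, VAMP7-4, VTI1-4 and COG8, and not whole in 97.2% of libraries for COG5, 88.9% for VAMP7-5, 86.1% for DSL1, 75.0% for VAMP7-1, 72.2% for VAMP7-3, 66.7% for GOS1, 55.6% for STX18, 30.6% for STXPM-3 and 16.7% for STX5-1. Counts that are not whole are shared with other transcripts by estimation, so the values of these genes are less certain.

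The highest dose was compared with vehicle at 24 h to see the early response. The COG genes were higher, the STXPM syntaxin copies moved in opposite directions, and the VAMP7 copies that changed were lower. In all 15 of 24 genes were called (edgeR quasi-likelihood test, adjusted p under 0.05), against 41.1% of all genes tested. Among these 11 were higher (21.6% of all genes) and 4 lower (19.5%). The 4 HHQ and 4 vehicle libraries did not overlap in 16 of 24 genes, against 42.5% of all genes. The median log2 fold change was 0.51, and 0.07 over all genes. By class, 6 of 7 COG genes rose and 0 fell, 3 of 7 syntaxins rose and 2 fell, 2 of 3 Qb or Qc SNAREs rose and 0 fell, and 2 of 6 VAMP7 copies fell and 0 rose. Direction also differed by level. Of all genes with a mean of at least 20 CPM, 12.7% were higher and 43.9% lower. Under 20 CPM these shares were 23.9% and 13.2%. Of the 8 tested members of at least 20 CPM, 1 was higher (12.5%) and 4 lower (50%). Of the 16 under 20 CPM, 10 were higher (62.5%) and 0 lower. Scaled by library totals, 14 genes were higher and 2 lower, and 86.5% of all calls were higher. The 13 calls without the libraries that stood apart were 9 higher and 4 lower. When only vehicle replicate 4 was left out 10 calls were made.

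At 72 h 11 of 24 genes were called, close to the 46.2% of all genes, 5 higher (22.6%) and 6 lower (23.6%). The groups did not overlap in 9 of 24 genes, against 39.5% of all genes. The median log2 fold change was 0.08, and 0.04 over all genes. Against vehicle, 3 of 7 COG genes were higher and 0 lower, and of the syntaxins 1 was higher and 3 lower. Among the VAMP7 copies 1 was higher and 2 lower, and of the Qb or Qc SNAREs 1 of 3 was lower. Of all genes with a mean of at least 20 CPM, 11.2% were higher and 56% lower, and under 20 CPM 25.5% and 15.3%. Of the 8 tested members of at least 20 CPM, 0 were higher and 6 lower (75%). Of the 16 under 20 CPM, 5 were higher (31.2%) and 0 lower. Scaled by library totals, 15 were higher and 1 lower, and 90.1% of all calls were higher. Replicates 1 and 2 alone gave 7 calls and replicates 3 and 4 alone 10. Without vehicle replicate 2 there were 5 calls, and without HHQ replicate 3 there were 6.

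**Figure D1:**
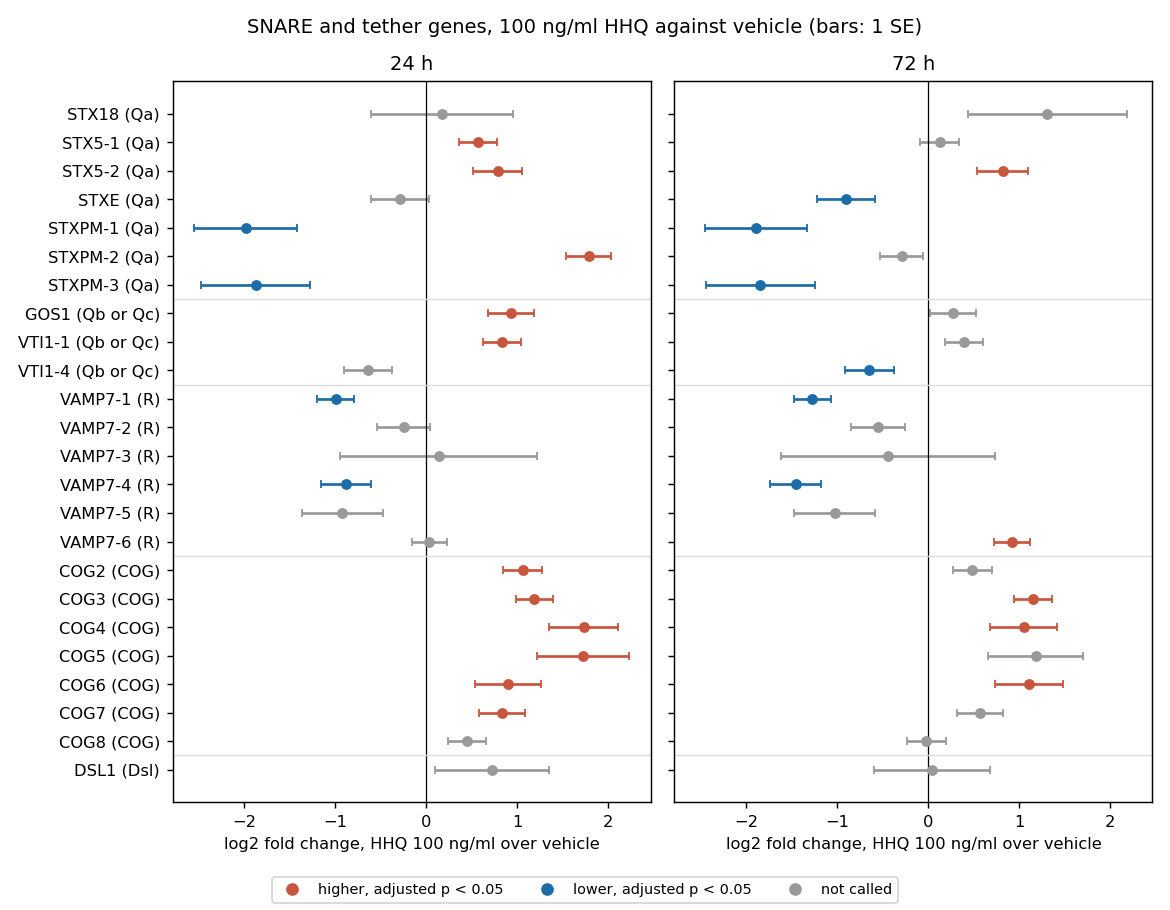
Log2 fold change of the 24 tested SNARE and tether genes, 100 ng/ml HHQ over vehicle, at 24 h (left) and 72 h (right), grouped by class, with bars of 1 SE from the edgeR fit (4 libraries a group) and color for the call. The COG genes lie at or right of 0 at 24 h, STXPM-1 and STXPM-3 lie near −2 at both times, and STXPM-2 is at 1.79 in the left panel and −0.29 in the right; with library totals alone every value lies further to the right.

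Among the STXPM copies, named for the plasma membrane, STXPM-2 rose at 24 h. It had 46.8, 56.5, 52.8 and 42.0 CPM with 100 ng/ml HHQ, against 16.9, 11.4, 14.9 and 14.2 CPM in vehicle. All HHQ libraries lay far above all vehicle libraries, and the log2 fold change was 1.79 ± 0.25 (SE, n = 4 each, adjusted p = 1.16e-06). Without the libraries that stood apart it was 1.85. At 72 h STXPM-2 had 17.5, 12.5, 26.8 and 24.1 CPM with HHQ, against 28.2, 16.6, 28.1 and 26.3 CPM in vehicle. These groups overlapped, and the log2 fold change of −0.29 ± 0.24 was not called (adjusted p = 0.332). The difference between the responses at 72 and 24 h was itself called, with a log2 value of −2.08 ± 0.34 (adjusted p = 0.00017), and it kept its call without each of the 16 libraries in turn. It was −1.75 with library totals alone (adjusted p = 0.0708).

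STXPM-1 and STXPM-3 fell where STXPM-2 rose. STXPM-1 had 7.99, 6.68, 5.76 and 8.10 CPM with 100 ng/ml HHQ at 24 h, against 23.5, 17.6, 26.1 and 46.0 CPM in vehicle. STXPM-3 had 26.8, 25.1, 18.05 and 37.03 CPM with HHQ, against 70.2, 68.6, 89.6 and 164 CPM in vehicle. Neither gene's groups overlapped, and vehicle replicate 4 was the highest library for both. Log2 fold changes were −1.98 ± 0.56 for STXPM-1 (adjusted p = 0.00575) and −1.87 ± 0.60 for STXPM-3 (adjusted p = 0.0132). Without vehicle replicate 4, STXPM-3 was at −1.51 and missed the threshold (adjusted p = 0.0602). Both were also lower and called with library totals alone, at −1.09 and −0.98.

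At 72 h both copies were lower than in vehicle, with a wide spread inside each group. STXPM-1 had 15.2, 24.2, 4.51 and 6.91 CPM with HHQ, against 63.8, 83.1, 20.3 and 20.7 CPM in vehicle. STXPM-3 had 58.9, 81.1, 17.3 and 28.1 CPM with HHQ, against 214, 328, 65.3 and 58.8 CPM in vehicle. Replicates 1 and 2 were the high libraries in both groups, so the groups overlapped although each HHQ library was below the vehicle library of the same number. On the log2 scale the changes were −1.89 ± 0.56 for STXPM-1 (adjusted p = 0.00649) and −1.85 ± 0.60 for STXPM-3 (adjusted p = 0.0125). They were −1.86 and −1.91 in replicates 1 and 2 alone, and −1.79 and −1.39 in replicates 3 and 4 alone, all called. STXPM-3 missed the threshold without vehicle replicate 2 (adjusted p = 0.0912) and without HHQ replicate 3 (adjusted p = 0.0542). STXPM-1 was at −0.79 (adjusted p = 0.0657) and STXPM-3 at −0.69 (adjusted p = 0.133) with library totals alone.

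The share of each copy among the 3 does not depend on the scaling between libraries. STXPM-2 made up 57.4%, 64.0%, 68.9% and 48.2% of their joint counts with 100 ng/ml HHQ at 24 h, against 15.3%, 11.7%, 11.4% and 6.35% in vehicle. The means were 59.6% ± 8.97 with HHQ and 11.2% ± 3.67 in vehicle (SD, n = 4 each), and no HHQ library came near a vehicle library. With 10 ng/ml the share was 19.5% ± 7.41, and with 1 ng/ml 7.25% ± 4.89. At 72 h STXPM-2 took 19.1%, 10.6%, 55.2% and 40.8% with 100 ng/ml HHQ, against 9.21%, 3.89%, 24.7% and 24.9% in vehicle. These groups overlapped, and within each pair of replicates, 1 and 2 or 3 and 4, the HHQ libraries were higher than the vehicle libraries. Because the counts of STXPM-1 and STXPM-2 are never whole, the split between these copies is an estimate. Over the 9 group means STXPM-1 and STXPM-3 followed each other with r = 0.99, whereas STXPM-2 had r = −0.57 with STXPM-1 and −0.60 with STXPM-3, a description of 9 groups that share treatments.

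**Figure D2:**
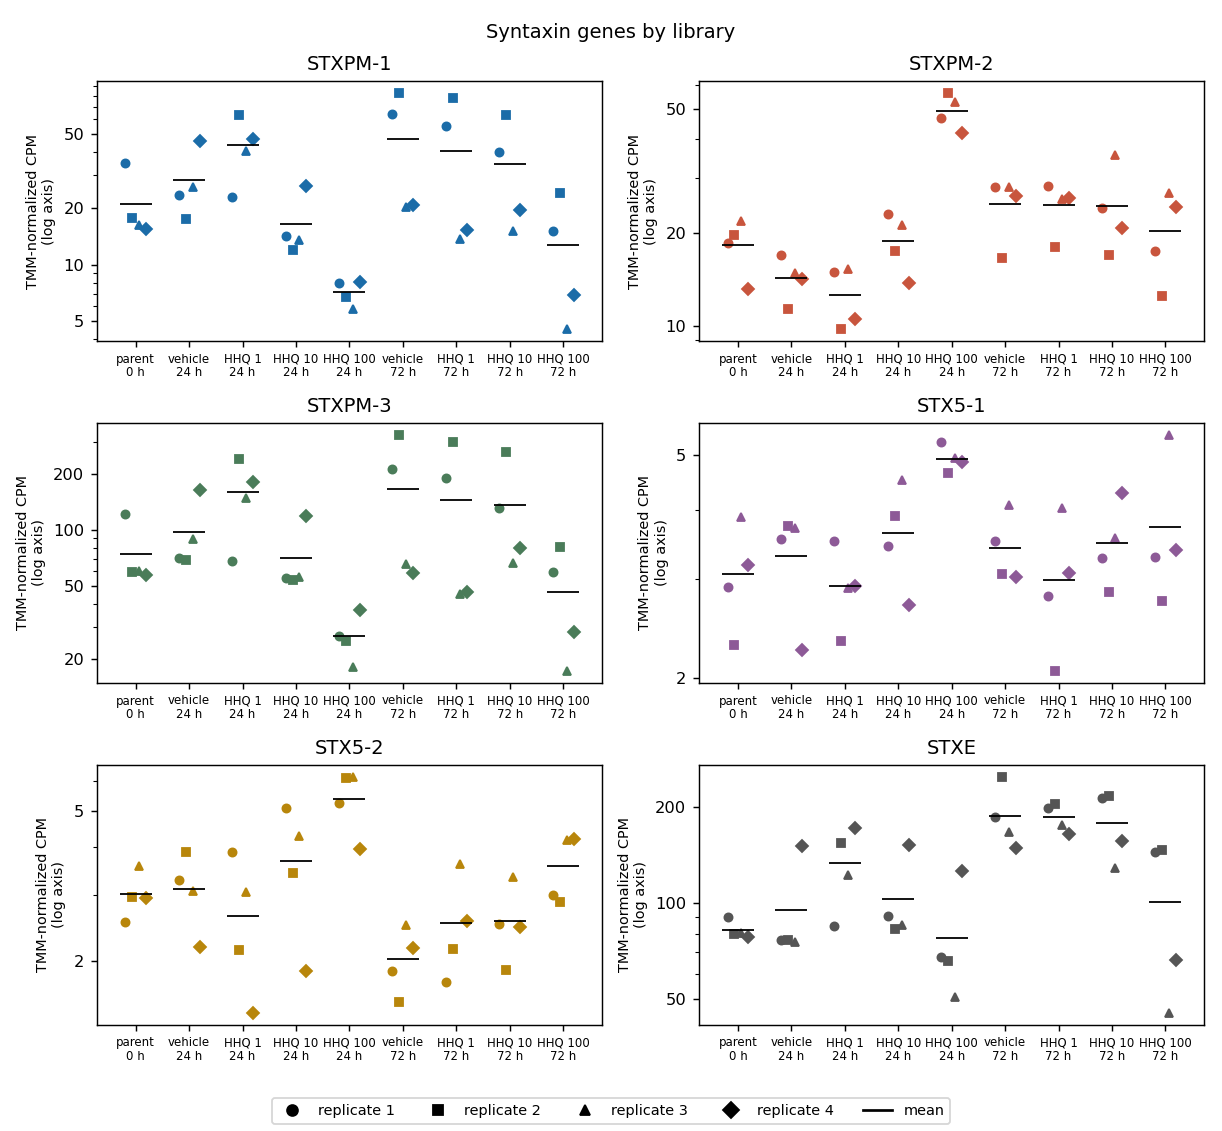
TMM-normalized CPM of 6 syntaxin genes in each of the 36 libraries (log axis), by group from the parent cultures at 0 h to 100 ng/ml HHQ at 72 h; symbols mark replicates 1 to 4 and lines the group means. STXPM-2 is high in the 4 libraries of 100 ng/ml at 24 h (42.0 to 56.5), where STXPM-1 and STXPM-3 are low (5.76 to 8.10 and 18.05 to 37.03), and replicates 1 and 2 lie above 3 and 4 for STXPM-1 and STXPM-3 at 72 h.

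**Figure D3:**
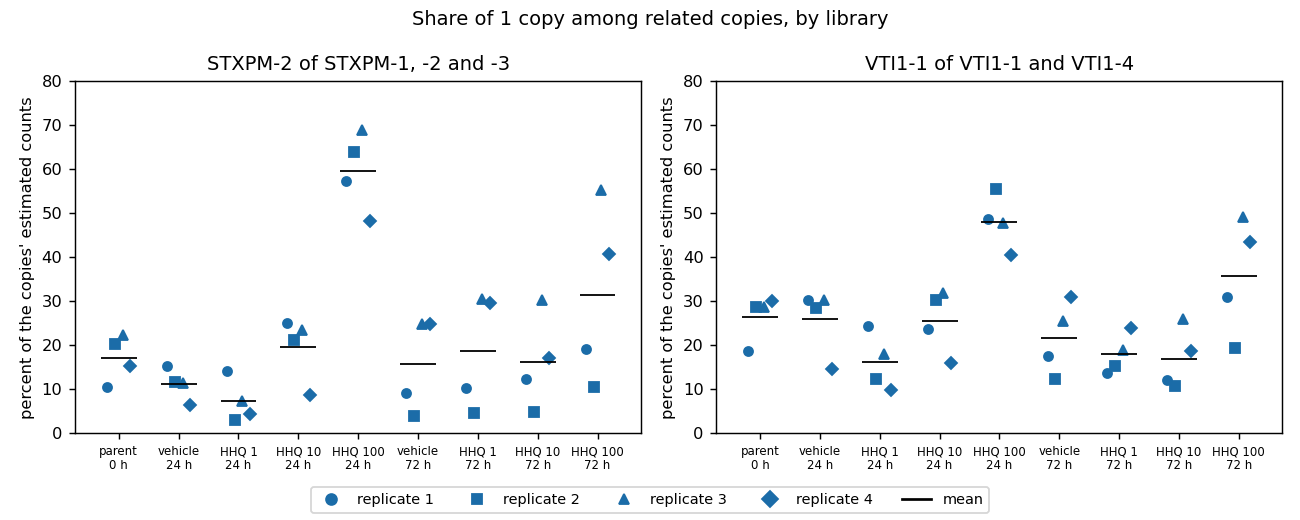
Percent of estimated counts that went to STXPM-2 among the 3 STXPM copies (left) and to VTI1-1 among VTI1-1 and VTI1-4 (right) in each library, by group; symbols mark replicates and lines the means. Both shares are highest with 100 ng/ml HHQ at 24 h, 48.2% to 68.9% for STXPM-2 and 40.4% to 55.6% for VTI1-1.

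The Golgi syntaxin copies STX5-1 and STX5-2 were higher at 24 h. STX5-2 had 5.26, 6.13, 6.17 and 3.96 CPM with 100 ng/ml HHQ, against 3.29, 3.90, 3.07 and 2.17 CPM in vehicle, groups that lay side by side without overlap. Its log2 fold change was 0.78 ± 0.27 (adjusted p = 0.0188), and it missed the threshold without vehicle replicate 4 (adjusted p = 0.0742), HHQ replicate 2 (adjusted p = 0.0656) or HHQ replicate 3 (adjusted p = 0.0662). STX5-1 averaged 4.93 ± 0.27 CPM with HHQ and 3.31 ± 0.72 CPM in vehicle (SD, n = 4 each), a log2 fold change of 0.57 ± 0.21 (adjusted p = 0.0325). It missed the threshold without vehicle replicate 4 or any 1 of the HHQ libraries (adjusted p = 0.056 to 0.133), and without all the libraries that stood apart (adjusted p = 0.144). At 72 h STX5-2 had 3.00, 2.87, 4.19 and 4.22 CPM with HHQ, against 1.88, 1.56, 2.49 and 2.17 CPM in vehicle, again without overlap. The log2 fold change was 0.82 ± 0.28 (adjusted p = 0.0158), and without vehicle replicate 2 the adjusted p was 0.0596; it missed the threshold in either pair of replicates alone (adjusted p = 0.119 and 0.0719). STX5-1 was at 0.13 ± 0.22 then, and was not called.

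STXE, the endosomal syntaxin name and the syntaxin with the most counts, was lower at 72 h. It had 144, 146, 45.2 and 66.1 CPM with 100 ng/ml HHQ, against 186, 249, 166 and 149 CPM in vehicle. All HHQ libraries were below all vehicle libraries. HHQ replicates 1 and 2 came close to the lowest vehicle library, and HHQ replicates 3 and 4 lay further below it. The log2 fold change was −0.90 ± 0.32 (adjusted p = 0.0215), with −0.54 in replicates 1 and 2 alone (adjusted p = 0.293) and −1.44 in replicates 3 and 4 alone (adjusted p = 0.00614). The call was lost without vehicle replicate 2 (adjusted p = 0.0846), HHQ replicate 3 (adjusted p = 0.113) or HHQ replicate 4 (adjusted p = 0.0954), and with library totals alone the value was 0.12. At 24 h STXE had 67.6, 65.8, 50.7 and 126 CPM with HHQ, against 76.6, 76.3, 75.3 and 151 CPM in vehicle. Replicate 4 was high in both groups, and the log2 fold change of −0.29 ± 0.32 was not called; with library totals alone it was 0.59 (adjusted p = 0.0148). The endoplasmic reticulum syntaxin STX18 ranged from 0 to 5.305 CPM over the 36 libraries and was at 0 in 4 of them. It was called in no comparison, with log2 fold changes for the highest dose over vehicle of 0.17 ± 0.78 (24 h) and 1.31 ± 0.87 (72 h).

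The balance between the VTI1 copies also shifted. VTI1-1 had 12.6, 14.5, 11.2 and 9.77 CPM with 100 ng/ml HHQ at 24 h, against 7.73, 7.49, 6.74 and 4.89 CPM in vehicle. The groups did not overlap, and the log2 fold change was 0.84 ± 0.21 (adjusted p = 0.00195). VTI1-4 had 13.3, 11.6, 12.3 and 14.4 CPM with HHQ, against 17.8, 18.7, 15.5 and 28.5 CPM in vehicle. These groups did not overlap either, but the log2 fold change of −0.64 ± 0.27 missed the threshold (adjusted p = 0.0543). It passed with the DESeq2 size factors (adjusted p = 0.0399) and with replicate numbers as a block (adjusted p = 0.00158). VTI1-1 took 48.1% ± 6.18 of the counts of both copies with HHQ and 25.97% ± 7.58 in vehicle (SD, n = 4 each), 40.4% to 55.6% against 14.7% to 30.4%. Over the 9 group means the copies had r = −0.89.

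At 72 h VTI1-4 was the copy that was called. It had 19.04, 25.5, 10.6 and 15.3 CPM with HHQ, against 31.1, 36.8, 23.003 and 19.01 CPM in vehicle. The groups overlapped, with replicates 1 and 2 high in both, and the log2 fold change was −0.64 ± 0.27 (adjusted p = 0.0475). It missed the threshold without vehicle replicates 1 or 2 or HHQ replicates 1, 3 or 4 (adjusted p = 0.0803 to 0.206), and in either pair of replicates alone. Its direction turned with library totals alone, to 0.45 (adjusted p = 0.00837). VTI1-1 was at 0.39 ± 0.21 and was not called (adjusted p = 0.124).

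GOS1, the Golgi Q-SNARE, rose at 24 h. It had 8.02, 8.96, 10.3 and 5.84 CPM with 100 ng/ml HHQ, against 5.02, 4.85, 4.61 and 2.79 CPM in vehicle. Replicate 4 was the lowest library of each group, and the groups did not overlap. The log2 fold change was 0.93 ± 0.25 (adjusted p = 0.00393) and kept its call without each of the 8 libraries in turn. At 72 h GOS1 was at 0.27 ± 0.25 and was not called (adjusted p = 0.396).

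Of the VAMP7 copies, VAMP7-1 and VAMP7-4 fell at both times. VAMP7-1 had 14.2, 15.6, 13.5 and 17.6 CPM with 100 ng/ml HHQ at 24 h, against 27.8, 27.05, 25.5 and 40.8 CPM in vehicle. VAMP7-4, the VAMP7 copy with the most counts, had 124, 131, 107 and 181 CPM with HHQ, against 198, 198, 221 and 379 CPM in vehicle. For both genes every HHQ library was below every vehicle library, and replicate 4 was the highest of its group. Log2 fold changes were −0.99 ± 0.20 for VAMP7-1 (adjusted p = 0.000304) and −0.88 ± 0.28 for VAMP7-4 (adjusted p = 0.0116). VAMP7-4 missed the threshold without vehicle replicate 4 (−0.60, adjusted p = 0.0931). Scaled by library totals, VAMP7-1 was at −0.14 (adjusted p = 0.406) and VAMP7-4 at 0.0003036, so the fall of both at 24 h was not seen with that scaling; with the DESeq2 size factors both kept their calls (−1.06 and −0.94).

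At 72 h VAMP7-1 had 20.2, 19.8, 10.3 and 13.4 CPM with HHQ, against 39.9, 48.1, 34.9 and 30.4 CPM in vehicle. VAMP7-4 had 216, 282, 91.6 and 128 CPM with HHQ, against 426, 677, 447 and 411 CPM in vehicle. Neither gene's groups overlapped, and both HHQ groups had replicates 1 and 2 above replicates 3 and 4. On the log2 scale the changes were −1.27 ± 0.21 for VAMP7-1 (adjusted p = 1.04e-05) and −1.45 ± 0.28 for VAMP7-4 (adjusted p = 0.000101). Both were called within either pair of replicates, and with library totals alone VAMP7-4 remained lower (−0.41, adjusted p = 0.0283) while VAMP7-1 was at −0.19 (adjusted p = 0.236). VAMP7-5 was at −0.92 ± 0.44 at 24 h and −1.02 ± 0.44 at 72 h and missed the threshold (adjusted p = 0.0953 and 0.059). With replicate numbers as a block in edgeR it was called, at −0.88 (adjusted p = 0.00524) and −1.07 (adjusted p = 0.000886). The numbers were not read as pairing in these comparisons. VAMP7-2 and VAMP7-3 lay between −0.55 and 0.14 at both times and were not called.

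VAMP7-6 was higher than vehicle at 72 h. It had 10.5, 9.10, 9.29 and 10.4 CPM with 100 ng/ml HHQ, against 4.39, 5.13, 5.85 and 5.42 CPM in vehicle. All HHQ libraries were above all vehicle libraries, with a log2 fold change of 0.92 ± 0.20 (adjusted p = 0.00034). It was called within replicates 1 and 2 (1.09) and within replicates 3 and 4 (0.87). Library totals alone gave 2.02, with the median of all genes at 1.17. Its share of the counts of the 6 copies was 4.28% ± 2.06 with HHQ and 0.818% ± 0.246 in vehicle (SD, n = 4 each). At 24 h it had 8.12, 10.1, 10.4 and 6.97 CPM with HHQ, against 8.93, 7.54, 10.3 and 7.81 CPM in vehicle, and the log2 fold change of 0.03 ± 0.19 was not called; with library totals alone it was 0.84 (adjusted p = 0.0327). From 24 to 72 h the mean of VAMP7-6 went from 8.64 to 5.20 CPM in vehicle and from 8.88 to 9.83 CPM with HHQ. The higher level over vehicle at 72 h thus came with a fall in vehicle. The difference between the responses at 72 and 24 h was 0.88 ± 0.27 (adjusted p = 0.0485). That call was lost without 8 of the 16 libraries: vehicle replicates 1 and 3 and HHQ replicates 1 and 4 at 24 h, and vehicle replicates 1, 2 and 4 and HHQ replicate 4 at 72 h (adjusted p = 0.0516 to 0.119). It was also lost with library totals alone (1.18, adjusted p = 0.178), without all the libraries that stood apart (0.83, adjusted p = 0.113) and in replicates 3 and 4 of 72 h alone (0.88, adjusted p = 0.0857). VAMP7-6 and STXPM-2 were the 2 of 24 genes with a called difference between the times, against 6.03% of all genes (3.37% higher, 2.65% lower).

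**Figure D4:**
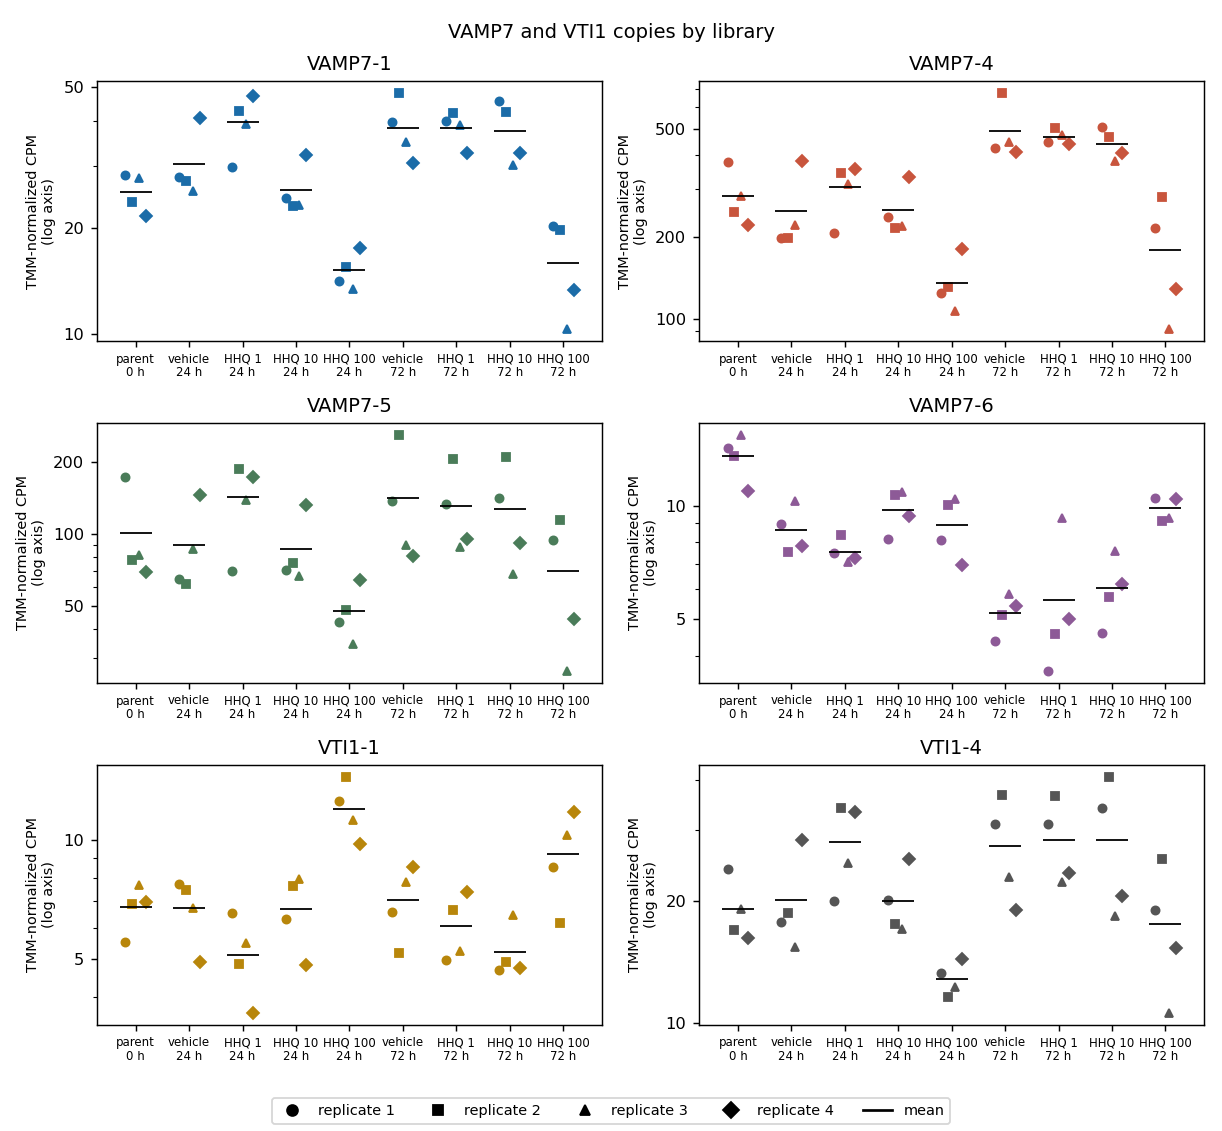
TMM-normalized CPM of 4 VAMP7 and 2 VTI1 copies in each of the 36 libraries (log axis), by group; symbols mark replicates 1 to 4 and lines the group means. With 100 ng/ml HHQ, VAMP7-1 and VAMP7-4 are below vehicle at both times (with library totals alone VAMP7-4 is level with vehicle at 24 h), VAMP7-6 is above vehicle at 72 h, and VTI1-1 is above vehicle at 24 h.

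The COG tether genes were higher with 100 ng/ml HHQ at 24 h. The 6 called had the same direction with DESeq2 size factors, where COG6 lost its call. Library totals moved the median gene up to 0.873, so the same direction with that scaling does not test a rise. COG4 had 2.80, 2.66, 2.31 and 3.37 CPM with HHQ, against 1.05, 0.949, 0.453 and 0.951 CPM in vehicle. COG5 had 2.86, 2.96, 2.13 and 2.92 CPM with HHQ, against 0.976, 0.738, 0.640 and 0.951 CPM in vehicle. Every HHQ library was above every vehicle library for both genes. Log2 fold changes were 1.73 ± 0.38 for COG4 (adjusted p = 0.00055) and 1.72 ± 0.50 for COG5 (adjusted p = 0.00725).

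COG2, the COG gene with the most counts, and COG3 also rose. COG2 had 11.1, 9.30, 8.84 and 10.5 CPM with HHQ at 24 h, against 4.698, 6.22, 4.16 and 4.01 CPM in vehicle. COG3 had 6.24, 6.25, 7.80 and 6.91 CPM with HHQ, against 3.04, 3.37, 2.80 and 2.72 CPM in vehicle. Both pairs of groups were well apart, with log2 fold changes of 1.06 ± 0.21 for COG2 (adjusted p = 0.000232) and 1.19 ± 0.20 for COG3 (adjusted p = 2.73e-05). COG6 was at 0.90 ± 0.36 (adjusted p = 0.0455) and COG7 at 0.83 ± 0.25 (adjusted p = 0.00888), and neither gene's groups overlapped. The call of COG6 was lost without each of the 8 libraries in turn (adjusted p = 0.0538 to 0.113) and with the DESeq2 size factors (adjusted p = 0.0664). COG8 was at 0.45 ± 0.21 and was not called (adjusted p = 0.0891), although COG2 to COG8 all lay above 0.

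At 72 h COG3, COG4 and COG6 were called higher. COG3 had 5.74, 6.42, 6.40 and 6.59 CPM with HHQ, against 3.07, 2.45, 2.95 and 2.82 CPM in vehicle. The groups were well apart, and the log2 fold change of 1.15 ± 0.20 (adjusted p = 3.59e-05) was called in both pairs of replicates. COG4 had 2.02, 2.68, 4.22 and 2.23 CPM with HHQ, against 1.32, 0.780, 1.58 and 1.73 CPM in vehicle, 1.05 ± 0.37 on the log2 scale (adjusted p = 0.0201). COG6 had 3.00, 2.93, 4.14 and 2.88 CPM with HHQ, against 2.13, 0.334, 1.58 and 2.02 CPM in vehicle, 1.11 ± 0.37 on the log2 scale (adjusted p = 0.0151). HHQ replicate 3 was the highest and vehicle replicate 2 the lowest library for both. Without vehicle replicate 2 the adjusted p was 0.0813 for COG4 and 0.0662 for COG6, and without HHQ replicate 3 it was 0.109 and 0.0512. In replicates 1 and 2 alone neither was called, and in replicates 3 and 4 alone COG6 was (adjusted p = 0.0263). COG2, COG5 and COG7 were at 0.49 ± 0.21, 1.18 ± 0.52 and 0.57 ± 0.26 and missed the threshold (adjusted p = 0.0593, 0.0613 and 0.0676), but were called with the DESeq2 size factors. COG8 was at −0.02 ± 0.21, and at 1.09 with library totals alone (adjusted p = 0.0164).

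Summed over COG2 to COG8, the level was 36.5 ± 1.82 CPM with 100 ng/ml HHQ and 18.3 ± 3.13 CPM in vehicle at 24 h, and 31.8 ± 4.04 against 20.4 ± 2.39 CPM at 72 h (SD, n = 4 each). At 24 h the HHQ libraries ran from 34.9 to 38.7 CPM and the vehicle libraries from 15.9 to 22.6 CPM. The COG genes took 8.18% ± 1.21 of the counts of all 27 genes with HHQ and 2.96% ± 1.11 in vehicle at 24 h, a share free of the scaling. This share depends on the other genes too. VAMP7-4, the gene of the 27 with the most counts, averaged 136 CPM with HHQ and 249 CPM in vehicle. Over the 9 group means the 21 COG pairs had r between 0.47 and 0.94. DSL1, the tether of the endoplasmic reticulum, had at most 0.968 CPM in any library and was called in no comparison, with 0.72 ± 0.63 at 24 h and 0.04 ± 0.64 at 72 h.

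**Figure D5:**
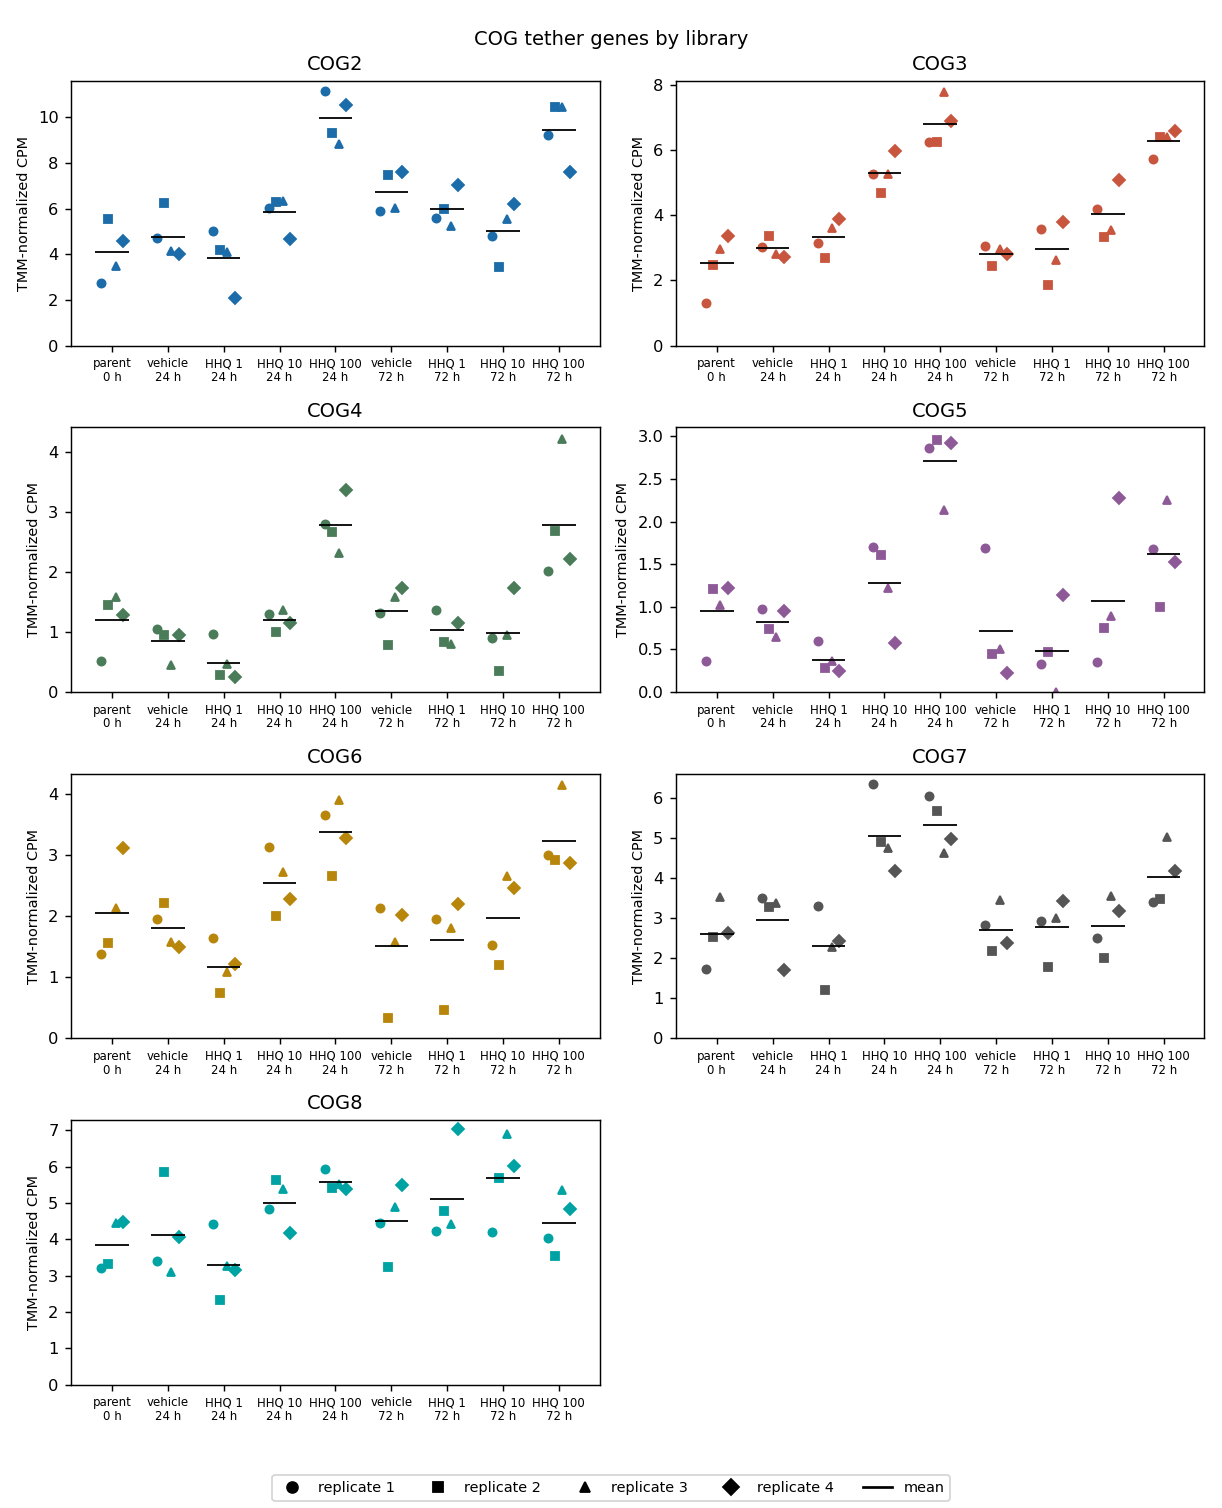
TMM-normalized CPM of COG2 to COG8 in each of the 36 libraries (linear axes from 0), by group; symbols mark replicates 1 to 4 and lines the group means. With 100 ng/ml HHQ at 24 h the libraries of COG2 to COG7 lie above all vehicle libraries, and COG3 and COG7 are also higher with 10 ng/ml at 24 h.

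At 10 ng/ml the comparison with the same vehicle libraries gave 2 calls of 24 at 24 h, against 11.8% of all genes (7.39% higher, 4.37% lower), and both were COG genes that rose. COG3 had 5.27, 4.69, 5.28 and 5.97 CPM with 10 ng/ml HHQ, against 3.04, 3.37, 2.80 and 2.72 CPM in vehicle. COG7 had 6.35, 4.89, 4.76 and 4.17 CPM with HHQ, against 3.51, 3.27, 3.39 and 1.70 CPM in vehicle. Neither gene's groups overlapped, and 17.5% of all genes showed no overlap here. Log2 fold changes were 0.83 ± 0.20 for COG3 (adjusted p = 0.00502) and 0.76 ± 0.25 for COG7 (adjusted p = 0.0472). COG3 kept its call without each of the 8 libraries, and COG7 kept it only without HHQ replicate 4; without each of the other libraries its adjusted p was 0.0522 to 0.194. Replicate numbers paired the libraries in this comparison, and with them as a block 4 genes were called, adding GOS1 (0.54, adjusted p = 0.0492) and STXPM-1 (−0.78, adjusted p = 0.0326). The sum of COG2 to COG8 was 26.2 ± 2.38 CPM with 10 ng/ml, with all 4 libraries (22.98 to 28.6) above the vehicle libraries.

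At 72 h 10 ng/ml gave 0 calls in edgeR and DESeq2, against 0.947% of all genes in edgeR (0.672% higher, 0.276% lower), and the groups did not overlap in 2 of 24, against 5.19%. An unadjusted p under 0.05 was reached by 3 of 24 genes, COG3 (0.51 ± 0.21), STX18 (2.07 ± 0.88) and VTI1-1 (−0.43 ± 0.21). The share of all genes under that unadjusted threshold was not counted, here or at 1 ng/ml. At 1 ng/ml there were 0 calls at 24 h and 72 h with both tools, against 0% of all genes called in edgeR. An unadjusted p under 0.05 was reached by 0 of the 24 genes. The groups did not overlap in 1 of 24 genes at 24 h, against 3.14% of all genes, and in 0 at 72 h, against 0.872%. The log2 fold changes ran from −1.09 to 0.71 at 24 h and from −0.44 to 1.83 at 72 h. Without the libraries that stood apart at 24 h, STXE (0.97, adjusted p = 0.0395) and VAMP7-1 (0.69, adjusted p = 0.0388) were called higher with 1 ng/ml. That fit called 3817 genes. It left out replicate 4 of vehicle and replicate 1 of HHQ 1 but kept replicate 4 of HHQ 1. Dose and the deviation of replicate 4 cannot be told apart in it.

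The step between the doses was tested directly, 100 against 10 ng/ml. At 24 h 6 of 24 genes were called, 4 higher and 2 lower, against 18.7% of all genes (9.5% and 9.18%), and the groups did not overlap in 13 of 24, against 32.6%. Library totals in place of TMM gave 5 higher and 0 lower. STXPM-2, with 46.8, 56.5, 52.8 and 42.0 CPM at 100 ng/ml against 23.02, 17.5, 21.2 and 13.8 CPM at 10 ng/ml, was higher by 1.39 ± 0.24 (adjusted p = 0.000125). COG4 was higher by 1.19 ± 0.37 (adjusted p = 0.0222), VTI1-1 by 0.84 ± 0.21 (adjusted p = 0.00476) and COG2 by 0.77 ± 0.21 (adjusted p = 0.0112). VAMP7-4 was at −0.89 ± 0.28 (adjusted p = 0.0237) and VAMP7-1 at −0.75 ± 0.20 (adjusted p = 0.00957). STXPM-2, COG2 and VTI1-1 kept their calls without each library in turn, but without all the libraries that stood apart COG2 (0.65, adjusted p = 0.0549) and COG4 (1.06, adjusted p = 0.0618) were not called, and 3 calls were left without HHQ 10 replicate 4. The numbers paired the libraries here too, and with the block 12 genes were called, 6 higher and 6 lower; STX5-1 and STX5-2 were added as higher, and STXPM-1, STXPM-3, VAMP7-5 and VTI1-4 as lower.

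At 72 h 11 of 24 genes differed between 100 and 10 ng/ml, 5 higher and 6 lower, against 39.5% of all genes (19.3% and 20.2%), and the groups did not overlap in 7 of 24, against 33.9%. Library totals in place of TMM gave 13 higher and 1 lower. COG4 was higher by 1.55 ± 0.38 (adjusted p = 0.00203), COG2 by 0.92 ± 0.22 (adjusted p = 0.00122) and VTI1-1 by 0.83 ± 0.21 (adjusted p = 0.00273). COG2 had 9.23, 10.5, 10.4 and 7.61 CPM at 100 ng/ml, against 4.82, 3.45, 5.55 and 6.19 CPM at 10 ng/ml, without overlap. STXPM-3 was at −1.55 ± 0.59 (adjusted p = 0.0378), STXPM-1 at −1.45 ± 0.55 (adjusted p = 0.037) and VAMP7-4 at −1.29 ± 0.28 (adjusted p = 0.000529). STXPM-1 and STXPM-3 missed the threshold without HHQ 10 replicates 1 or 2 or HHQ 100 replicates 1, 3 or 4 (adjusted p = 0.0547 to 0.214). Replicate numbers paired these libraries, and with the block 15 genes were called, 8 higher and 7 lower, adding COG6, COG7 and STX5-2 as higher and VAMP7-5 as lower (−0.94, adjusted p = 0.00331). There were 6 calls without HHQ 10 replicate 2, and 7 without HHQ 10 replicate 1, HHQ 100 replicate 3 or HHQ 100 replicate 4.

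Between the groups without HHQ, 4.17% of these genes were called against the parent cultures and 12.5% between the vehicle times. Vehicle cultures at 24 h differ from the parent cultures by time, by inoculation into new cultures and by the solvent, which cannot be told apart. Between them 1 of 24 genes was called, against 18.9% of all genes (9.81% higher, 9.12% lower). It was VAMP7-6, with 8.93, 7.54, 10.3 and 7.81 CPM in vehicle against 14.2, 13.5, 15.4 and 10.95 CPM in the parent cultures. The groups did not overlap, as in 21.5% of all genes, and the log2 fold change was −0.64 ± 0.19 (adjusted p = 0.0148). The call held without each library in turn, and was lost without all libraries that stood apart (adjusted p = 0.0893) or with library totals alone (adjusted p = 0.0917). Between vehicle at 72 h and at 24 h 3 of 24 were called, 2 higher and 1 lower, against 7.11% of all genes (3.92% and 3.19%), and 3 did not overlap, against 10.3%. VAMP7-6 fell by a further 0.74 ± 0.20 on the log2 scale (adjusted p = 0.0178), to 5.20 ± 0.62 CPM at 72 h against 8.64 ± 1.25 CPM at 24 h. VAMP7-4 rose by 0.98 ± 0.28 (adjusted p = 0.0258) and STXPM-2 by 0.79 ± 0.24 (adjusted p = 0.0415), to 490.4 ± 125 against 249 ± 87.5 CPM and 24.8 ± 5.52 against 14.3 ± 2.28 CPM. STXPM-2 kept its call in only 1 of the 8 fits that left out a library, the one without vehicle replicate 2 at 72 h (otherwise adjusted p = 0.0524 to 0.164), and missed it with no filter (adjusted p = 0.07003). VAMP7-4 lost its call without vehicle replicates 1, 2 or 3 at 24 h or replicate 2 at 72 h (adjusted p = 0.0904 to 0.115), and VAMP7-6 without vehicle replicate 3 at 24 h or replicate 1 at 72 h (adjusted p = 0.085 and 0.0711). There were 0 calls without vehicle replicate 3 at 24 h, and 1 without vehicle replicates 1 or 2 at 24 h or replicate 1 at 72 h. In the 100 ng/ml cultures VAMP7-6 was at 9.83 ± 0.74 CPM at 72 h and 8.88 ± 1.62 CPM at 24 h.

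Partners of the SNAREs were counted from lists of symbols. SM proteins clasp assembled SNAREs, and of 7 tested 2 were higher and 1 lower with 100 ng/ml HHQ at 24 h, and 2 were higher and 2 lower at 72 h, against the 21.6% and 19.5% of all genes at 24 h and the 22.6% and 23.6% at 72 h. Vps45, which works with endosomal syntaxins in yeast, had a log2 fold change of 1.12 ± 0.14 at 24 h (adjusted p = 2.95e-07) and 1.28 ± 0.14 at 72 h (adjusted p = 2.1e-08). Sec1-2, named for the SM protein of plasma membrane syntaxins, was at −1.29 ± 0.46 (adjusted p = 0.0259) and −1.12 ± 0.46 (adjusted p = 0.0462). It was the 1 SM gene called lower at 24 h, and SEC1 and Sec1-1, tested too, were not called lower then. The median log2 fold change of the 7 SM genes was 0.246 at 24 h and 0.254 at 72 h. Of 8 genes of the HOPS, CORVET and GARP tethers 2 were higher and 1 lower at 24 h, and 1 was higher and 0 lower at 72 h, against the same shares of all genes, with VPS54 of GARP at 0.75 ± 0.16 and 0.42 ± 0.16 (adjusted p = 0.000643 and 0.036). Of 18 tested Rab GTPases, which recruit tethers to membranes, 5 were higher and 4 lower at 24 h, and 6 were higher and 9 lower at 72 h, against the same shares of all genes. Their median log2 fold change was −0.68 at 24 h and −0.87 at 72 h, and 0.07 and 0.04 over all genes. Rab50 was at −1.25 ± 0.40 at 24 h (adjusted p = 0.0132) and −1.61 ± 0.41 at 72 h (adjusted p = 0.00174), and Rab1b-1 at −1.24 ± 0.48 (adjusted p = 0.0382) and −1.46 ± 0.48 (adjusted p = 0.0139). Rab5a, named for the Rab of early endosomes, was at 1.52 ± 0.16 at 24 h (adjusted p = 1.19e-08) and at 1.16 ± 0.16 at 72 h (adjusted p = 7.92e-07).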

How the data were processed

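Polyadenylated RNA was sequenced from stranded libraries, per the labels' protocols. The authors deposited estimated counts per gene, made with Trimmomatic 0.38 and Salmon 0.12.0 per the submitters' processing notes; the sources used here do not give the reference transcripts or settings. Of the deposited estimated counts 45.8% were not whole, and they were rounded. All 36 columns matched 1 sample each by name.

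In R 4.3.3, edgeR 4.0.16 filterByExpr kept 26494 of 37212 genes, TMM factors were computed, and quasi-likelihood F tests were run in 1 two-sided model over 36 libraries with a coefficient for each group. P-values were adjusted by Benjamini-Hochberg over all genes within each comparison, and calls needed an adjusted p below 0.05. SE was taken as the size of the log2 fold change over the square root of F. The fit was also run on simulated counts. These were drawn without the shifts in TMM factors or the deviating replicates seen here, so that run does not test their effect. Comparisons with vehicle at one time share the vehicle libraries. The members and lists were chosen with earlier results of these data known.

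Values per library are given for called genes with a mean of at least 1 CPM, up to 6 in each direction for 100 ng/ml HHQ against vehicle and 3 elsewhere, and for the gene with the most counts in each class. The HHQ cultures' log2 fold changes are over vehicle unless stated.

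Alternatives were DESeq2 1.42.0 size factors and its Wald test, library totals alone, no filter, a replicate block, sets of libraries left out and each library left out in turn. Deviations of same-numbered libraries correlated by over 0.1 in all 4 pairs for HHQ 10 over vehicle (0.174 to 0.5 at 24 h, 0.201 to 0.438 at 72 h), for HHQ 1 over vehicle at 72 h (0.284 to 0.445) and for HHQ 100 over HHQ 10 (0.12 to 0.422 at 24 h, 0.134 to 0.45 at 72 h). Only there were the numbers read as pairing libraries, a reading that rests on this cut and not on the labels. The main tests had no block in any comparison, so their calls and SEs leave any pairing out. For HHQ 100 over vehicle the correlations ran from 0.0137 to 0.4485 at 24 h and from 0.0248 to 0.318 at 72 h.

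Within groups, the chi-square per gene between replicates was 5.61 or more, so no library was treated as a copy of another. The upper limit for genes without any counts covers counting error only. The SEs from the fit and the SDs over replicates also include the spread between cultures. Genome coordinates and sequences were not used here.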

Additional observations from a re-analysis of the deposited data

Results flagged for a closer look

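Single libraries lay far from the other 3 of their group in 20 of 216 groups tested; chance alone gives about 1 in 20, and the genes share libraries. Replicate 4 of vehicle at 24 h was the distant library for COG7 (1.70 CPM, low), STX5-1 (2.24 CPM, low), STXE (151 CPM, high), VAMP7-1 (40.8 CPM, high) and VAMP7-4 (379 CPM, high). Replicate 4 of HHQ 10 at 24 h was high for STXE (152 CPM), STXPM-1 (26.3 CPM), STXPM-3 (119 CPM), VAMP7-1 (32.1 CPM) and VAMP7-5 (132 CPM). Parent replicate 1 was high for STXPM-1 (34.9 CPM), STXPM-3 (122 CPM) and VAMP7-5 (173 CPM).

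The other distant libraries were spread over the groups. At 24 h they were vehicle replicate 3 for COG4 (0.453 CPM, low) and HHQ 100 replicate 3 for COG5 (2.13 CPM, low). At 72 h they were vehicle replicate 2 for STXPM-2 (16.6 CPM, low) and VAMP7-4 (677 CPM, high), HHQ 10 replicate 3 for VTI1-1 (6.44 CPM, high), HHQ 100 replicate 3 for COG6 (4.14 CPM, high) and HHQ 100 replicate 4 for DSL1 (0.789 CPM, high).

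The response to 100 ng/ml HHQ differed between 72 and 24 h for STXPM-2 (log2 difference −2.08, edgeR adjusted p = 0.00017) and for VAMP7-6 (0.88, edgeR adjusted p = 0.0485).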

How the results depend on the processing

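Of 51 calls on single genes, DESeq2's test kept 49, its size factors 45, fits without a filter 42, the replicate block 51 and library totals alone 32. Direction turned only with library totals, which drop the TMM factors: VAMP7-4 at 24 h (0.0003036), STXE (0.12) and VTI1-4 (0.45) at 72 h for HHQ 100 over vehicle, and STXE (0.0607) and VTI1-4 (0.29) for HHQ 100 over HHQ 10 at 72 h.

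Counts of called genes that moved by over 1.5 times are given here, with some smaller moves beside them. Where no construction shows it, the cause was not tested. For HHQ 100 over vehicle at 72 h (11 calls), replicates 1 and 2 alone, with fewer samples, gave 7, and leaving out 1 library gave 5 to 14; at 24 h (15) it gave 10 to 15. The replicate block gave 18 calls at 24 h and 15 at 72 h, smaller moves, where the numbers were not read as pairing. It added COG8, VAMP7-5 and VTI1-4 at 24 h, and COG2, COG7, VAMP7-5 and VTI1-1 at 72 h. For HHQ 10 over vehicle at 24 h (2), DESeq2 size factors, library totals, no filter and leaving out the libraries that stood apart each gave 1, the replicate block gave 4, and leaving out 1 library 1 to 2. For HHQ 1 over vehicle at 24 h (0), leaving out the libraries that stood apart gave 2, in a fit that kept HHQ 1 replicate 4. For HHQ 100 over HHQ 10 at 24 h (6), the replicate block gave 12 and leaving out 1 library 3 to 6. At 72 h (11), no filter, replicates 1 and 2 alone and replicates 3 and 4 alone each gave 7, and leaving out 1 library 6 to 11.

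For vehicle at 24 h over parent (1), library totals and leaving out the libraries that stood apart each gave 0. For vehicle at 72 h over 24 h (3), leaving out those libraries gave 5, replicates 1 and 2 alone 6, replicates 3 and 4 alone 1, and leaving out 1 library 0 to 3. For the difference between the times (2), library totals gave 0, leaving out the libraries that stood apart 1, replicates 3 and 4 alone 1, and leaving out 1 library 1 to 2. In the paired comparisons the replicate block ended no call.

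Genes under 1 CPM (DSL1, VAMP7-3, COG5 in vehicle, COG4 in vehicle at 24 h) rest on few counts, so differences there were not detectable at this depth unless large.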
